A study of Homo sapiens with 12 samples.

Results

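The Ota response of each gene was compared between exposure times in HK-2 cells, an immortalised human line from the proximal tubule epithelium of the kidney. A response is the log2 level in Ota cells minus that in control cells at the same time, and the difference of responses is the response at 72 h minus the response at 24 h. Of 10699 genes tested, 3137 fell into 1 of 4 classes. A gene was early only where it responded at 24 h, not at 72 h, and the difference of responses also passed the test. Late only genes met the same conditions with the times exchanged, kept genes responded in 1 direction at both times, and turned genes responded in opposite directions. A response, or a difference of responses, was called where its limma p-value, adjusted over all genes tested, was below 0.05.

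The 12 arrays formed 4 groups of 3: Ota cells at 72 h, control cells at 72 h, Ota cells at 24 h and control cells at 24 h. Ota cells had a dose that the labels call low without a concentration, and control cells had the vehicle, which the labels do not name. All 4 groups were plated the day before and exposed near confluency in the same supplemented medium, and the 3 arrays of a group are labelled biological replicates with no word on what the cultures shared. The labels do not spell out Ota. Its letters are those in common use for ochratoxin A, a mould toxin that damages the kidney.

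Since nothing says what the cultures of a group shared, part of the spread behind each p-value may be technical. Arrays of a group correlated at 0.986 to 0.994 over the 10699 genes tested, and no array repeated the values of another. The first principal component held 49.1% of the variance and the second 24.5%. The log2 ratio of 3′ to 5′ actin probe sets, a measure of RNA quality, was 1.28 ± 0.08 in Ota cells and 1.18 ± 0.17 in control cells at 72 h, and 1.17 ± 0.12 in Ota cells and 1.01 ± 0.21 in control cells at 24 h (SD, n = 3 arrays each). All 6 of 6 epithelial markers were above the expression filter, but of 13 proximal tubule markers with a probe set only PAX8 and CDH6 were, and transport markers such as LRP2, CUBN, AQP1 and SLC22A6 were not. No marker of endothelium, leukocytes or the distal nephron passed the filter (0 of 5, 0 of 3 and 0 of 5). Of 5 podocyte markers with a probe set PODXL, SYNPO and CD2AP passed, and NPHS1 and WT1 did not. Of 6 fibroblast markers COL1A1, DCN and LUM passed, and the summed log2 level of the 6 was 36.0 to 37.0 in Ota cells and 33.0 to 33.9 in control cells at 72 h, and 37.4 to 38.3 in Ota cells and 37.5 to 38.4 in control cells at 24 h. The part of these markers and of RNA quality in the differences below was not tested. In whole cultures, fewer cells of a type and less RNA per cell cannot be told apart.

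Proximal tubule cells take up organic anions from the blood side, which is how ochratoxin A reaches them, and the toxin is known to slow protein synthesis and cell division. Dividing cells express the replication machinery under E2F transcription factors, whose targets fall when cells stop cycling. The unfolded protein response, driven by ATF6, IRE1 with XBP1, and PERK with ATF4, raises chaperones of the endoplasmic reticulum and enzymes of amino acid supply when folding capacity or nutrients run short. A response at each time is read against control cells of the same time, which may themselves have changed.

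Among genes called at both times 1192 kept their direction and 231 turned it. A further 806 genes responded early only and 908 late only. The late only class was mostly genes higher in Ota cells (625 higher, 283 lower), and the early only class mostly genes lower in Ota cells (188 higher, 618 lower). Turned genes were mainly higher than control at 72 h and lower than control at 24 h (190 genes, against 41 that went the other way).

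These counts stand against 21.3% of genes with a called difference of responses, 15.5% with a higher and 5.79% with a lower response at 72 h (1659 and 619 genes). A response was called for 32% of genes at 72 h and for 31% at 24 h. The classes held 7.53% (early only), 8.49% (late only), 11.1% (kept) and 2.16% (turned) of the genes tested. The split of the difference calls moved with the scaling of the arrays: after a second quantile normalization the higher calls numbered 1398 and the lower ones 841, a share of 62.4% higher against 72.8% as reported. The upper quartile of log2 values was 7.10, 7.08 and 7.02 on Ota arrays and 6.95, 7.00 and 6.94 on control arrays at 72 h. At 24 h it was 6.95, 6.88 and 6.90 on Ota arrays and 7.00, 6.88 and 6.99 on control arrays. The part of these quartiles in the split was not tested. Without Ota 24 h replicate 2 the turned class held 153 genes. The remaining genes were called at 1 time with the difference not called (2178), in the difference alone (106) or in none of the 3 comparisons (5278). A response at 1 time alone was thus often no sign of a difference between times: of 1894 genes called at 24 h and not at 72 h the difference was called for 806 (42.6%), and of 1998 called at 72 h and not at 24 h it was called for 908 (45.4%).

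**Figure D1:**
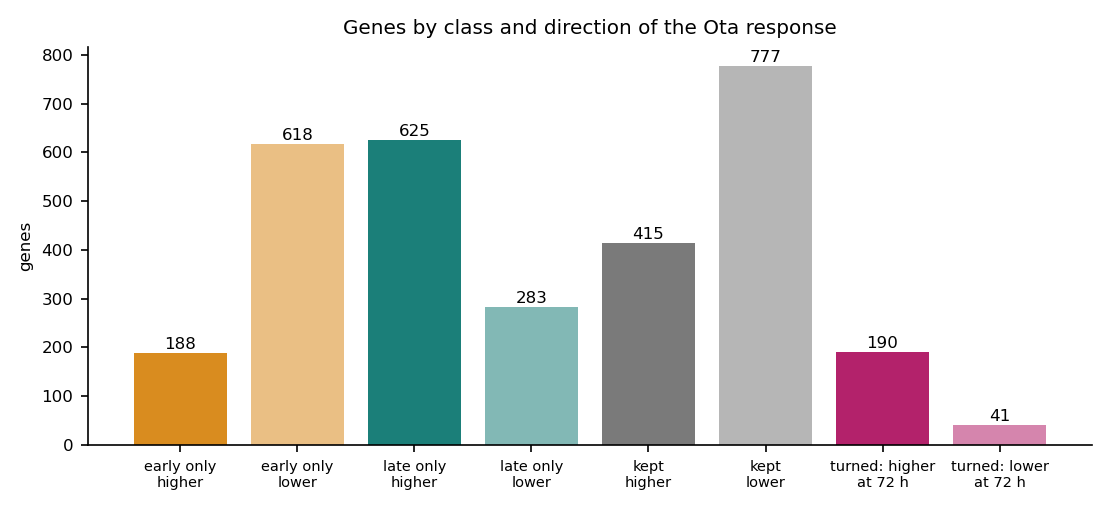
Number of genes (vertical axis) in each response class, split by the direction of the Ota response (horizontal axis). The highest bars are kept lower (777), late only higher (625) and early only lower (618), and the lowest is turned to lower at 72 h (41).

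The class rule asks for a called difference and so favours genes whose uncalled response has the opposite sign, and the next counts are a description. The 2 responses had opposite signs in 490 of 806 early only genes and in 611 of 908 late only genes. Of the kept genes, 965 had no called difference, 54 responded more at 72 h and 173 less. All 231 turned genes had a called difference of responses. The median 72 h response of the genes turned to higher was 0.63 and their median 24 h response -0.53, on the log2 scale. Over all genes tested, the 72 h and 24 h responses, which share no arrays, had a Pearson correlation of 0.444 across genes, given as a description. At the edge of the difference call lay NBAS (-0.38), EIF2AK1 (0.32) and HNRNPF (0.57) just inside and WWC1 (0.78), MRPS12 (0.73) and PCBD2 (0.73) just outside.

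**Figure D2:**
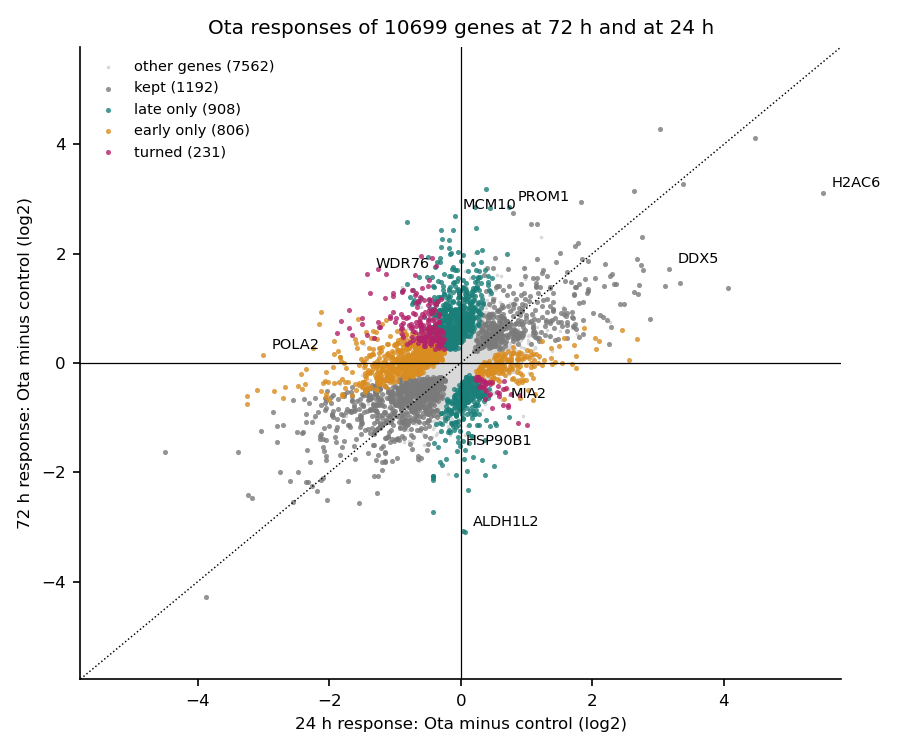
Ota response at 72 h (vertical axis, log2) against that at 24 h (horizontal axis, log2) for 10699 genes, 1 point a gene, coloured by class, with the line of equal responses dotted. Late only genes lie along the vertical axis, early only genes along the horizontal one, turned genes in the upper left and lower right, and kept genes on both sides of the dotted line.

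The difference of responses equals the change over time in Ota cells minus that in control cells, on the same arrays, so the classes were also described by which culture changed. Over all genes, 32.2% changed between 72 h and 24 h in Ota cells and 46.4% in control cells. Of the 10699 genes 2378 rose and 1069 fell in Ota cells, and 2434 rose and 2529 fell in control cells. Of the 625 late only higher genes, 106 rose, 151 fell and 368 were not called in Ota cells, while 1 rose, 533 fell and 91 were not called in control cells. Their median change over time was -0.04 in Ota cells and -0.84 in control cells. Of the 283 late only lower genes, 99 rose, 16 fell and 168 were not called in Ota cells. In control cells 266 of them rose, 2 fell and 15 were not called. Their median change over time was 0.20 in Ota cells and 1.00 in control cells. Genes turned to higher had fallen in control cells in 173 of 190 cases (median change 0.14 in Ota cells and -1.06 in control cells). In the early only lower class 323 of 618 genes rose in Ota cells and 331 fell in control cells, with medians of 0.42 and -0.44. These are separate counts and need not cover the same genes. Of the 188 early only higher genes, 46 fell in Ota cells and 143 rose in control cells, with medians of -0.07 and 0.62. These counts share arrays with the classes and describe them, with no test of their own.

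**Figure D3:**
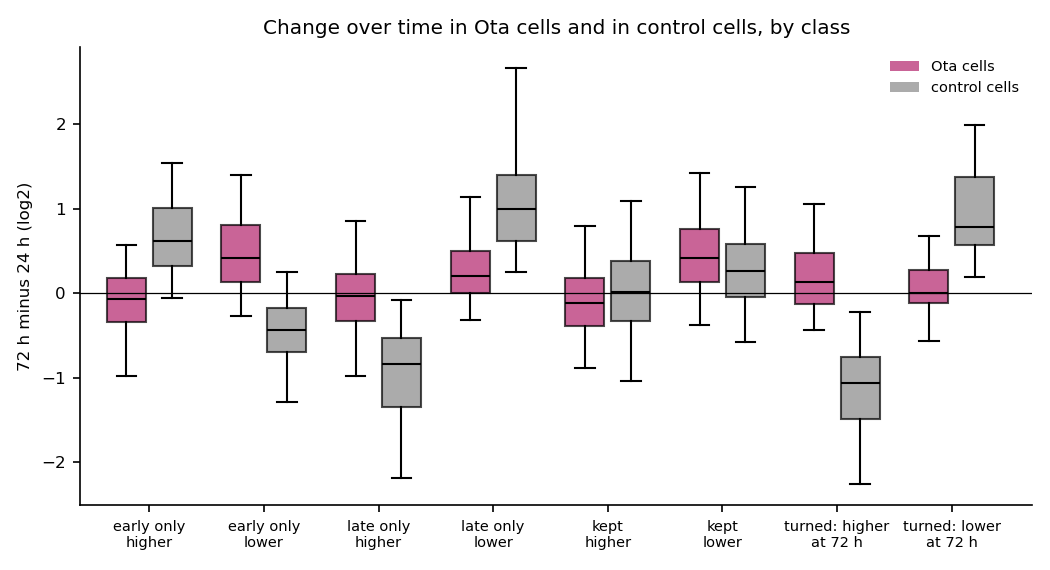
Change over time (72 h minus 24 h, log2, vertical axis) in Ota cells (magenta) and in control cells (grey) for the genes of each class and direction. Boxes span the quartiles around the median, and whiskers run to the 5th and 95th percentiles. In both late only classes and both turned classes the control boxes lie farther from 0 than the Ota boxes.

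A second readout came from genes with another probe set above the filter, which the classes did not use. The next brightest probe set gave a difference of the same sign for 92.5% of 454 late only genes. For turned genes the share was 89.4% of 113, and for early only genes 79.7% of 395. All genes of these classes had a called difference, and the share was 84.7% of 1130 genes with a called difference and 72.3% of 5200 genes in all. The next probe set had the same sign and also passed for 51.3% of late only, 46.9% of turned and 31.9% of early only genes. Over the 1130 genes this share was 40.6%. By direction it was 57.8% of 83 genes turned to higher and 16.7% of 30 turned to lower. For early only genes it was 36.6% of 279 lower and 20.7% of 116 higher ones. For late only genes it was 52.4% of 307 higher and 49.0% of 147 lower ones. The median difference of late only genes was 0.42 by the next probe set and 0.60 by the first, and that of early only genes 0.29 and 0.66. Early only calls therefore carried over to a second probe set less fully than late only calls in these counts, a contrast that was not tested.

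Genes of DNA replication were mostly late only or turned to higher. All 19 tested genes of the replicative helicase and of origin licensing had a higher response at 72 h than at 24 h, with a median difference of 1.23 against 0.09 over all genes. Of these, 12 were late only, 5 turned, 1 early only (GINS4) and 1 called in the difference alone (CDC6). The turned members were MCM2, MCM3, MCM5 and MCM6, subunits of the ring that unwinds DNA, and GINS2, a subunit of the GINS complex that activates that ring. In control cells 18 of 19 fell over time (median -1.39), while in Ota cells 2 rose and 3 fell (median -0.01).

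Promoters are shown for 4 of the genes that moved in this way because E2F sites are what replication genes are known to share. The windows run 250 bases before to 50 after the start site, from RefSeq on GRCh38.p14. Only stretches before the start site are printed, with capitals marking the letters TTTGGCGC, TTTCGCGC or TTTCCCGC on either strand. The MCM6 stretch is chr2:135876507-135876610, minus strand, 79 to 152 bases before the start. It holds 2 sites, each of which matches once on either strand so that the matches overlap. GINS2 is chr16:85688963-85689000, minus strand, PCNA is chr20:5126659-5126696, minus strand, and UHRF1 is chr19:4909472-4909500, plus strand.
MCM6: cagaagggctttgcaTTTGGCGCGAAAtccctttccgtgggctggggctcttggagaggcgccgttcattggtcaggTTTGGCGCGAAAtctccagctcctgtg
GINS2: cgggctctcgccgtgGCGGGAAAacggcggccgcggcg
PCNA: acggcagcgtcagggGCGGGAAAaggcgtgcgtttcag
UHRF1: aaatgccgagttttcGCGGGAAAaaaatc

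Matches to these E2F forms were found in 9 of 16 helicase and licensing promoters, 7 of 20 promoters of fork genes and 6 of 13 of the E2F and cyclin E list. They were found in 10.6% of 529 late only higher promoters and 11.9% of 159 promoters of genes turned to higher. The shares were 2.51% of 239 late only lower promoters, 4.82% of 8868 promoters of all genes tested and 2.79% of 27305 promoters in all. A match describes letters in a window and was not tested as a site.

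MCM6 read 11.45, 11.49 and 11.41 in Ota cells and 10.72, 10.63 and 10.42 in control cells at 72 h, and 11.39, 11.41 and 11.47 in Ota cells and 11.95, 11.92 and 12.07 in control cells at 24 h, in log2 units. Ota arrays lay wholly above control arrays at 72 h and wholly below them at 24 h, and Ota cells were level between the times. The response was 0.86 ± 0.09 at 72 h and -0.56 ± 0.09 at 24 h, and the difference 1.42 ± 0.13 (SE, limma adjusted p = 8.7e-05). A second MCM6 probe set gave the same difference, 1.44, but from responses of 3.03 at 72 h and 1.59 at 24 h, so the turn itself rests on the brighter probe set. GINS2 read 9.46, 9.61 and 9.44 in Ota cells and 8.76, 9.00 and 8.65 in control cells at 72 h, and 8.95, 8.90 and 9.36 in Ota cells and 10.47, 10.57 and 10.68 in control cells at 24 h. Its groups did not overlap at either time, with Ota cells 1.63 times control at 72 h and 0.352 times control at 24 h.

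At the fork itself 21 of 23 genes of the polymerases, clamp, clamp loader, primase and ligase had a higher response at 72 h (median difference 1.25), and RFC1 and RFC5 were not called. PCNA, the sliding clamp, read 13.30, 13.34 and 13.22 in Ota cells and 12.05, 12.30 and 12.11 in control cells at 72 h, and 13.21, 13.20 and 13.30 in Ota cells and 13.76, 13.26 and 13.84 in control cells at 24 h. It was late only: above control on every array at 72 h, with 1 overlapping control array at 24 h. WDHD1, which couples helicase and polymerase, and TIMELESS, which steadies the fork, both turned, with differences of 1.56 ± 0.14 and 1.39 ± 0.13 (SE). POLA2, the regulatory subunit of polymerase alpha, was early only. It read 5.67, 6.06 and 5.88 in Ota cells and 5.73, 5.87 and 5.59 in control cells at 72 h, and 4.60, 4.08 and 5.30 in Ota cells and 7.73, 7.52 and 7.73 in control cells at 24 h. Ota arrays were wholly below control arrays at 24 h and overlapped them at 72 h, with control cells lower and Ota cells higher than at 24 h (difference 3.14 ± 0.34, limma adjusted p = 0.00023). The clamp loader subunit RFC4 was kept lower, at -0.89 at 72 h and -2.16 at 24 h.

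Regulators of S phase entry moved in the same direction. In the list of E2F factors, E-type cyclins, histone chaperones and DNA methylation upkeep, 14 of 15 genes had a higher response at 72 h (median difference 1.78), 8 of them late only and 6 turned, with E2F3 not called. All 15 fell over time in control cells. UHRF1, which recruits the maintenance methyltransferase DNMT1 to new DNA, read 10.11, 10.25 and 10.03 in Ota cells and 8.30, 8.21 and 8.13 in control cells at 72 h, and 10.58, 10.37 and 10.54 in Ota cells and 10.96, 10.81 and 11.03 in control cells at 24 h. Both cultures had lower UHRF1 at 72 h, the control far more, so that Ota cells stood at 3.78 times control at 72 h and at 0.74 times control at 24 h. ASF1B, a histone chaperone, was late only, with a response of 2.43 at 72 h and -0.12 at 24 h. Cyclin E1 (CCNE1) turned, at 1.61 at 72 h and -0.69 at 24 h.

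Nucleotide enzymes followed in part. Of 16 tested, 11 had a higher response at 72 h and none a lower one (median difference 0.65). Thymidine kinase 1 (TK1) read 9.85, 9.55 and 9.95 in Ota cells and 8.55, 8.70 and 8.44 in control cells at 72 h, and 10.01, 10.00 and 10.23 in Ota cells and 11.13, 11.18 and 11.04 in control cells at 24 h. It turned without overlap at either time (difference 2.26 ± 0.17, SE, limma adjusted p = 3.3e-05). The CTP synthetase gene CTPS1 turned as well, with a difference of 1.61, whereas the purine enzymes PAICS, PPAT, ATIC and IMPDH2 had differences of 0.23, 0.12, 0.32 and -0.13 that did not pass.

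Mitotic genes differed from replication genes in what Ota cells did. Of 30 tested, 23 had a higher response at 72 h (19 late only, 2 early only, 2 turned; median difference 0.80). Over time 30 of 30 fell in control cells and 28 of 30 fell in Ota cells, with medians of -0.96 in Ota cells and -1.81 in control cells. CDCA8, the borealin subunit of the chromosomal passenger complex, read 8.28, 7.95 and 8.22 in Ota cells and 7.10, 7.47 and 6.99 in control cells at 72 h, and 9.32, 9.33 and 9.44 in Ota cells and 9.72, 9.77 and 9.59 in control cells at 24 h. Ota cells were below their own 24 h level yet above the 72 h control. AURKB, the kinase of that complex, turned by its brighter probe set (difference 1.89), but by its second the difference was 0.34 and did not pass. SPC25, of the kinetochore's outer layer, turned with a difference of 2.78 ± 0.36 (SE).

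Genes of homologous recombination and the Fanconi pathway, which mend broken and crosslinked DNA in S phase, had a higher response at 72 h in 9 of 12 cases (median difference 1.37). BRIP1, the BRCA1-associated helicase, read 7.90, 7.89 and 7.93 in Ota cells and 5.89, 6.45 and 5.81 in control cells at 72 h, and 8.50, 8.70 and 8.65 in Ota cells and 8.85, 8.86 and 9.09 in control cells at 24 h. It was late only. RAD54L, which drives strand exchange, turned with a difference of 2.43 ± 0.20 (SE). Among excision, mismatch and end-joining genes 8 of 20 had a higher response at 72 h and none a lower one (median difference 0.32). Over all genes 15.5% were called higher. In the excision, mismatch and end-joining list DDB2, a damage sensor, and UNG, the uracil glycosylase, turned, with differences of 1.01 and 0.92.

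**Figure D4:**
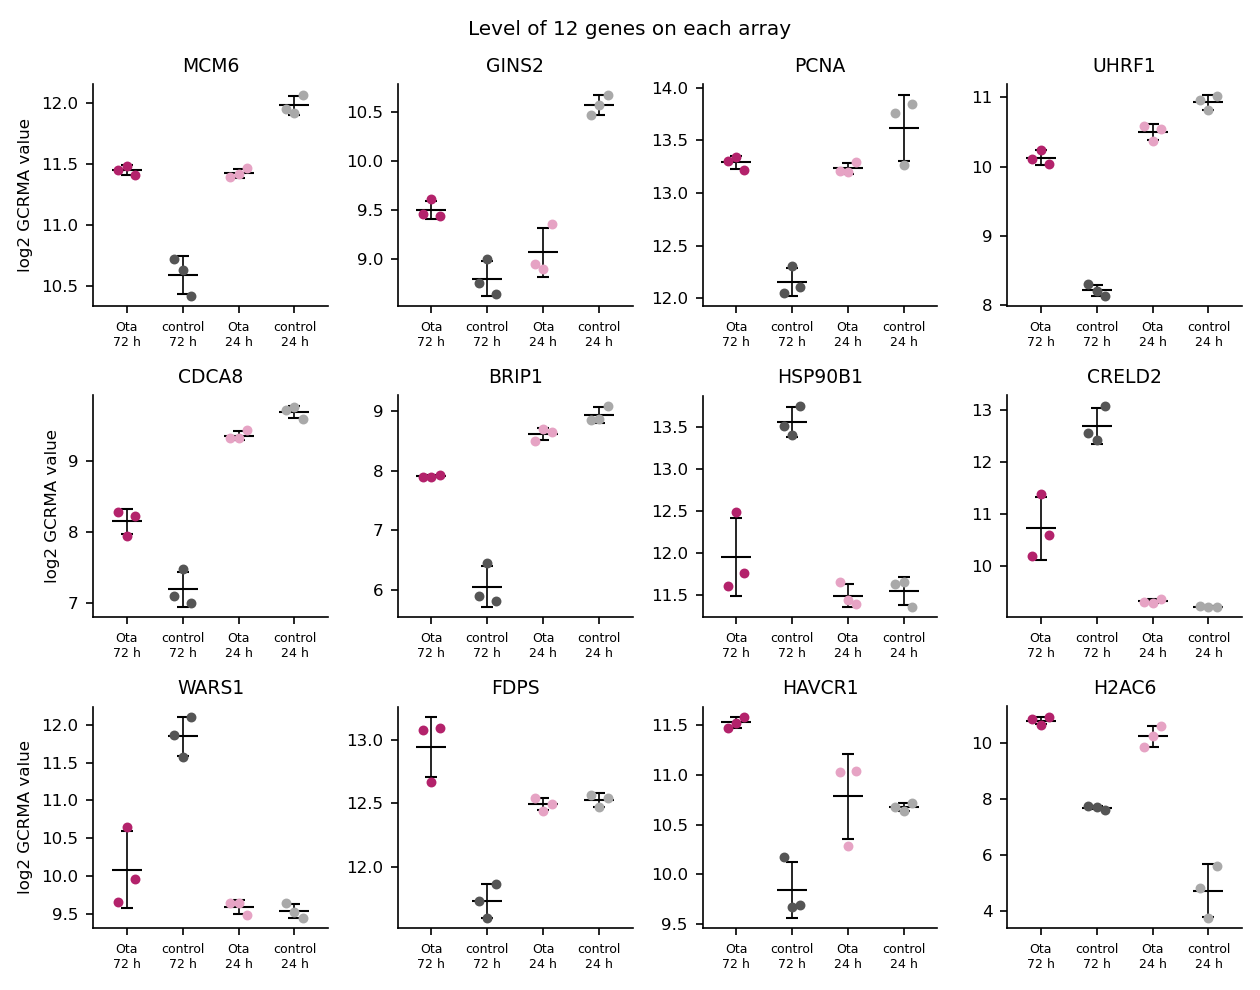
Level (log2 GCRMA value, vertical axis) of 12 genes on each array, as points, with the mean and SD of each group of 3 arrays, in the order Ota 72 h, control 72 h, Ota 24 h and control 24 h. In MCM6, GINS2, PCNA, UHRF1, CDCA8 and BRIP1 the control 72 h group has the lowest mean, and in HSP90B1, CRELD2 and WARS1 the highest.

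The endoplasmic reticulum (ER) showed the reverse. Of 29 tested genes of ER folding and ER-associated degradation, 21 had a lower response at 72 h than at 24 h and none a higher one (median difference -0.99 against 0.09 over all genes), and 17 were late only lower. At 72 h the response was lower than control for 25 of 29, and at 24 h it was higher for 2 and lower for 3. Over time 16 of 29 rose in Ota cells and 28 of 29 in control cells, with medians of 0.71 and 2.01. Genes of ER translocation and of COPII and COPI vesicles had a lower response at 72 h in 15 of 29 cases (median difference -0.53). Over all genes 5.79% were called lower.

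Promoters of 3 late only chaperone genes are printed because ATF6 and XBP1 are known to act through an element of CCAAT and CCACG 9 bases apart, searched on both strands and marked in capitals. The HSP90B1 stretch is chr12:103930201-103930354, plus strand, with matches 71 to 194 bases before the start. CRELD2 is chr22:49918539-49918587, plus strand, and CALR is chr19:12938369-12938417, plus strand.
HSP90B1: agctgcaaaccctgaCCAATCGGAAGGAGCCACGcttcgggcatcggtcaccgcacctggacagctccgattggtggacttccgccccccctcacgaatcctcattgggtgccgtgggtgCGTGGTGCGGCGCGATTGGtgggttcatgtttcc
CRELD2: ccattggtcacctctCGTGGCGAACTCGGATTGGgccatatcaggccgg
CALR: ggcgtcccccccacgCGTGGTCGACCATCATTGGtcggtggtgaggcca

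The element was rare: 22 of 27305 promoters (0.0806%) and 13 of 8868 promoters of tested genes held it. Of the 13 genes, 7 were late only lower (CALR, CANX, CRELD2, EIF2A, ERO1B, HSP90B1 and SERP1), 3 kept lower (FICD, TMEM120A and XBP1), 2 called at 1 time with the difference not called (ALG12 and HSPA5) and 1 uncalled (TRIM5). The windows of CRELD2 and ALG12, and those of EIF2A and SERP1, overlap on opposite strands, so these pairs share their match. Within the ER folding list 7 of 25 promoters (28%) held the element. A form of the CEBP and ATF element, TGATGNAAT, was in 0 of 23 promoters of the ATF4 list and in 279 of 27305 in all, which says only that these letters are not in those windows.

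HSP90B1, the HSP90 of the ER, read 11.60, 12.48 and 11.76 in Ota cells and 13.51, 13.40 and 13.75 in control cells at 72 h, and 11.65, 11.43 and 11.39 in Ota cells and 11.63, 11.65 and 11.35 in control cells at 24 h. Control cells at 72 h were above all other arrays, and Ota cells were at 0.328 times their level; at 24 h the groups overlapped. The difference was -1.56 ± 0.28 (SE, limma adjusted p = 0.0037), read from a probe set whose probes can match other transcripts, and a second probe set gave -1.35. CRELD2, a secreted folding factor, read 10.19, 11.38 and 10.59 in Ota cells and 12.56, 12.43 and 13.09 in control cells at 72 h, and 9.29, 9.28 and 9.35 in Ota cells and 9.22, 9.20 and 9.20 in control cells at 24 h. Ota cells had thus gained CRELD2 by 72 h, but less than control cells had. CALR, the calreticulin chaperone of glycoproteins, had a difference of -0.80 ± 0.14 (SE), and its change over time in Ota cells, -0.09, did not pass.

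PDIA6, a disulfide isomerase, was late only lower, with a response of -0.77 at 72 h and 0.22 at 24 h. The ER oxidase gene ERO1B had the lowest difference of the list, -2.29 ± 0.47 (SE, limma adjusted p = 0.007). The sensor gene ATF6 was early only higher: it read 9.68, 9.94 and 9.71 in Ota cells and 10.01, 9.97 and 10.03 in control cells at 72 h, and 9.65, 9.84 and 9.67 in Ota cells and 8.67, 8.98 and 8.70 in control cells at 24 h. Its change over time was 0.06 in Ota cells, which did not pass, and 1.22 in control cells, and a second probe set gave a smaller difference, -0.56, that passed. ERN1, which encodes the IRE1 sensor, was early only higher as well, at -0.37 at 72 h and 0.87 at 24 h. HSPA5 (BiP), the central chaperone, had a difference of only -0.33 ± 0.26 by its brighter probe set, which did not pass, while a second probe set gave -2.38 from responses of 0.72 at 72 h and 3.11 at 24 h.

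Of the traffic genes, TMED10, a cargo receptor of early secretory vesicles, turned to lower. It read 12.41, 12.54 and 12.36 in Ota cells and 13.12, 13.07 and 13.13 in control cells at 72 h, and 12.57, 12.53 and 12.39 in Ota cells and 12.19, 12.14 and 12.06 in control cells at 24 h. The groups were apart at both times, though the second TMED10 probe set gave -0.50, which did not pass. LMAN1, the lectin that carries glycoproteins out of the ER, was late only lower, with a difference of -1.04 ± 0.15 (SE).

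Amino acid supply genes shared the late lower response in part. Of 29 tested ATF4 and integrated stress response genes, 6 had a lower response at 72 h and none a higher one (median difference -0.41). Over all genes 5.79% were called lower. In the ATF4 list 26 of 29 rose over time in Ota cells and 26 of 29 in control cells, beside 2378 and 2434 of all 10699 genes. ALDH1L2, a mitochondrial folate enzyme, read 4.99, 6.78 and 5.60 in Ota cells and 8.80, 8.60 and 9.25 in control cells at 72 h, and 4.43, 4.34 and 4.08 in Ota cells and 4.69, 3.53 and 4.47 in control cells at 24 h. It had the lowest difference of all 10699 genes, -3.15 ± 0.57 (SE, limma adjusted p = 0.0038), with 24 h levels near the floor of the arrays. Asparagine synthetase (ASNS) read 10.19, 11.07 and 10.67 in Ota cells and 11.84, 11.67 and 11.82 in control cells at 72 h, and 9.05, 9.35 and 8.80 in Ota cells and 8.97, 9.30 and 9.07 in control cells at 24 h, a gain in both cultures that was larger in control cells. XPOT, the exporter of tRNA from the nucleus, had a difference of -0.85 from responses of -0.93 at 72 h and -0.07 at 24 h. A second XPOT probe set gave -1.70 from responses of -0.63 at 72 h and 1.07 at 24 h, so the late only pattern rests on the brighter probe set.

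The regulators ATF4, DDIT3 and ATF3 had differences of -0.41, -0.21 and -0.30 that did not pass. Of 17 aminoacyl-tRNA synthetases 7 had a lower response at 72 h and 1, HARS1, a higher one (median difference -0.34). Over all genes 5.79% were called lower and 15.5% higher. WARS1, for tryptophan, read 9.66, 10.64 and 9.96 in Ota cells and 11.87, 11.58 and 12.10 in control cells at 72 h, and 9.65, 9.65 and 9.49 in Ota cells and 9.64, 9.52 and 9.45 in control cells at 24 h. Control cells at 72 h stood above every other array, and the difference was -1.81 ± 0.30 (SE, limma adjusted p = 0.0022). IARS1, for isoleucine, had a difference of -0.75. BCAT1, which transaminates branched amino acids, was late only lower, at -2.32 at 72 h and 0.11 at 24 h.

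Cholesterol synthesis genes had a late higher response that came with a gain in Ota cells. Of 18 tested, 14 had a higher response at 72 h and none a lower one (median difference 1.02), and 9 were late only higher. Over time 16 of 18 rose in Ota cells and 1 of 18 in control cells, where 5 fell, with medians of 0.69 and -0.07. FDPS, the farnesyl diphosphate synthase, read 13.08, 12.67 and 13.09 in Ota cells and 11.73, 11.59 and 11.86 in control cells at 72 h, and 12.54, 12.44 and 12.50 in Ota cells and 12.57, 12.47 and 12.54 in control cells at 24 h. At 24 h the groups overlapped, and at 72 h Ota cells lay above every other array and control cells below (difference 1.25 ± 0.17, SE, limma adjusted p = 0.0007). Over time FDPS changed by 0.45 in Ota cells and by -0.80 in control cells. EBP, a sterol isomerase, turned, with a difference of 1.09. The EBP change over time was 0.22 in Ota cells, which did not pass, and -0.86 in control cells, so control cells gave the larger part for both genes. INSIG1, the sterol-sensing brake of the pathway, was late only higher, at 1.22 at 72 h and -0.02 at 24 h, and SREBF2, the transcription factor of the pathway, had a difference of -0.07 that did not pass.

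Glycolytic enzymes shared the direction by smaller steps. Of 25 genes of hypoxia and glycolysis 12 had a higher response at 72 h and none a lower one (median difference 0.46). ENO2, an enolase, turned, at 1.08 at 72 h and -0.38 at 24 h, and PGAM1, a mutase, was late only higher with a difference of 0.69 ± 0.11 (SE). The oxygen-response genes VEGFA, NDRG1 and SLC2A1 had differences of -0.69, -0.57 and 0.01 that did not pass. In the respiratory chain 3 of 21 genes passed, all higher, beside 15.5% of all genes called higher. Among the 3 was SDHA, which turned with a difference of 0.81 from a probe set whose probes can match other transcripts.

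**Figure D5:**
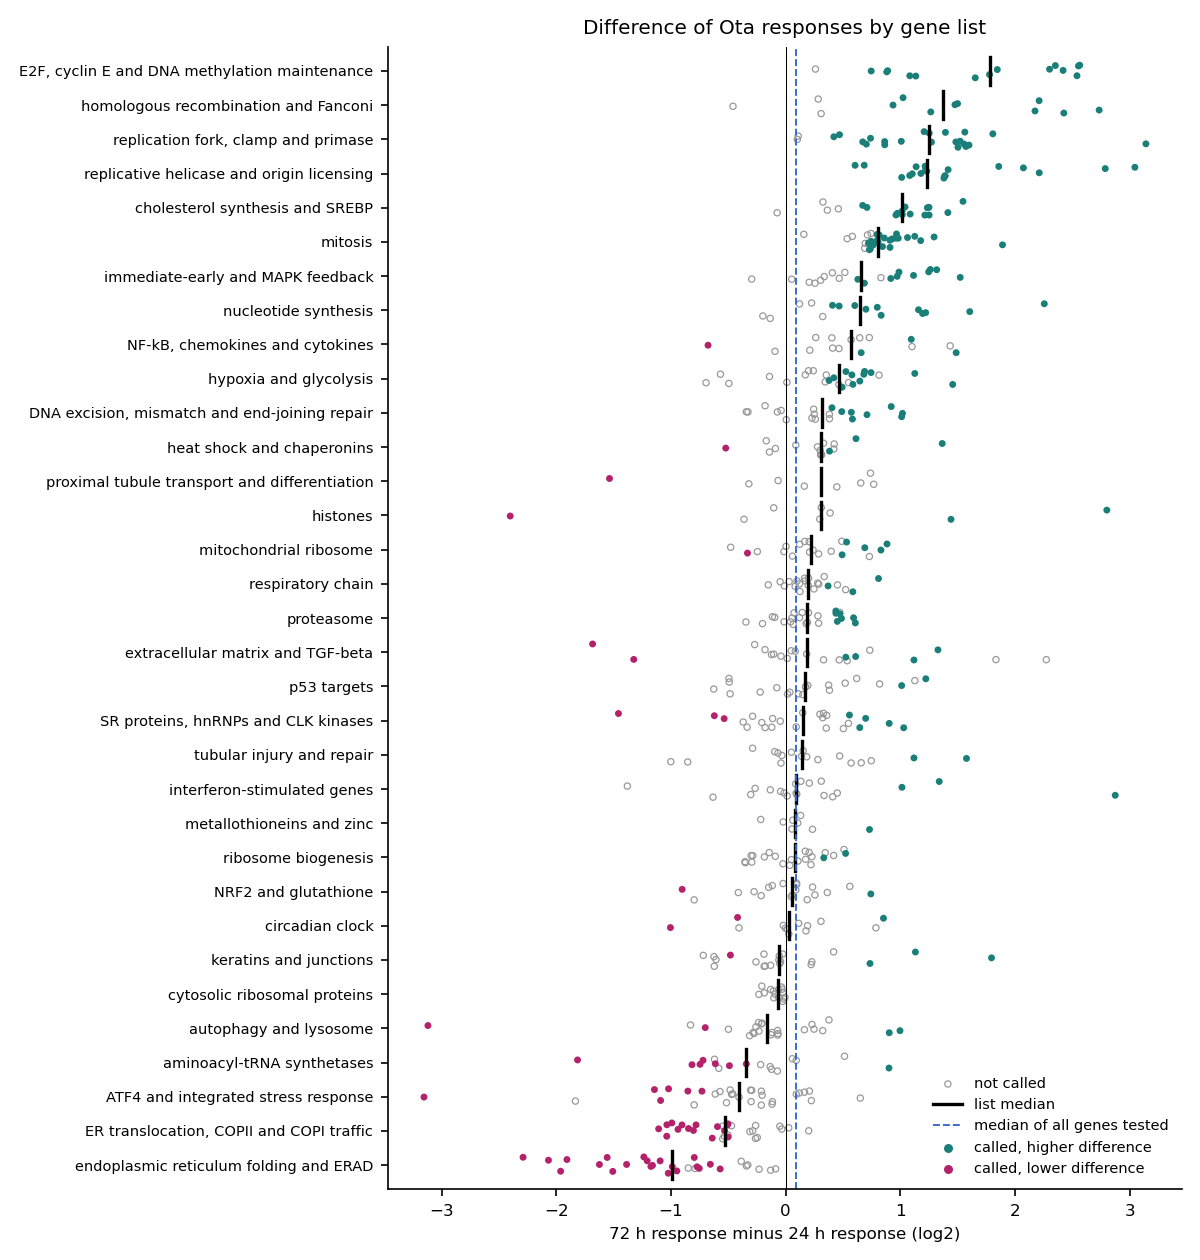
Difference of Ota responses (72 h minus 24 h, log2, horizontal axis) of the tested members of 33 gene lists (vertical axis, ordered by median). Filled points passed the test, higher in green and lower in magenta, open circles did not, black bars are list medians and the dashed line is the median of all genes tested. Replication, recombination and cholesterol lists lie to the right, and the ER, ATF4 and tRNA synthetase lists to the left.

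Early only lower genes were below control at 24 h, with a gap at 72 h that did not pass. The mitochondrial ribosome gave 5 of them, and its difference was called higher for 5 and lower for 1 of 20 genes (median 0.22). Over all genes 15.5% were called higher and 5.79% lower. MRPL15 read 10.90, 10.97 and 10.82 in Ota cells and 11.07, 11.06 and 10.97 in control cells at 72 h, and 10.59, 10.48 and 10.67 in Ota cells and 11.31, 11.24 and 11.20 in control cells at 24 h. Its groups were apart at 24 h and overlapped at 72 h. MRPS7 had a response of -0.22 at 72 h, which did not pass, and of -0.91 at 24 h. Of 24 proteasome genes 7 had a higher response at 72 h, 4 of them early only lower and 3 late only higher, including PSMD1 (difference 0.61) and PSMA7 (0.47). Beside 21.3% of all genes with a called difference, ribosome biogenesis held 2 of 22 and cytosolic ribosomal proteins 0 of 15. Autophagy and lysosome genes held 2 higher and 2 lower of 24.

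Among early only genes with every group mean at log2 4 or above, TLCD1, POLA2 and PUSL1 had the largest 24 h responses below control. PUSL1, a pseudouridine synthase-like gene, read 7.44, 7.63 and 7.47 in Ota cells and 7.87, 8.27 and 7.96 in control cells at 72 h, and 5.28, 4.43 and 5.45 in Ota cells and 7.89, 7.78 and 8.02 in control cells at 24 h. Most of its deficit had closed at 72 h, and the remaining gap did not pass. TLCD1 had a 24 h response of -3.25 and a difference of 2.49 that did not pass without Ota 72 h replicate 1 or without control 72 h replicate 1 (limma adjusted p = 0.0541 and 0.0506). By the same rule DNAI4, GALK2 and LOC283788 had the largest above control, at 2.10, 2.04 and 1.73 at 24 h and 0.40, 0.45 and 0.33 at 72 h. Their second probe sets did not bear the calls, with differences of -1.06, 0.13 and -0.89 that did not pass.

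Kept genes responded in 1 direction at both times. Ranked by the smaller of both responses among genes with every group mean at log2 4 or above, H2AC6, IER5L, an immediate-early response gene, and MGC16275, an uncharacterised locus, led the higher ones, and PLPP5, TSPAN31 and METTL23 the lower ones. IER5L read 9.70, 9.81 and 9.84 in Ota cells and 6.58, 6.62 and 6.72 in control cells at 72 h, and 9.41, 9.65 and 9.47 in Ota cells and 6.83, 6.84 and 6.96 in control cells at 24 h. Ota cells were 8.84 times control at 72 h and 6.21 times at 24 h by this probe set. A second IER5L probe set gave responses of only 0.44 at 72 h and 0.21 at 24 h, and the difference, 0.51 as reported, was 0.23 with it and 0.37 with the mean of probe sets, neither past the threshold. METTL23, a methyltransferase-like gene, read 8.71, 8.52 and 8.43 in Ota cells and 10.72, 10.75 and 10.68 in control cells at 72 h, and 7.60, 7.18 and 7.92 in Ota cells and 10.05, 10.05 and 10.39 in control cells at 24 h, with no overlap at either time. TSPAN31 and PLPP5 had responses of -2.18 and -2.25 at 72 h and -2.32 and -2.26 at 24 h. PLPP5's difference was 0.00 by the probe set used and -1.47 by the second (limma adjusted p = 0.0013). The second had responses of -1.32 at 72 h and 0.14 at 24 h. Neither the kept class of PLPP5 nor its near-equal responses were thus seen with the second probe set.

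Histone genes and the RNA helicase DDX5 were also kept higher. Of 8 tested histone genes 5 were kept higher, beside 415 of all 10699 genes tested. H2AC6 read 10.85, 10.65 and 10.92 in Ota cells and 7.76, 7.71 and 7.63 in control cells at 72 h, and 9.87, 10.26 and 10.61 in Ota cells and 4.84, 3.76 and 5.62 in control cells at 24 h. The response was smaller at 72 h (3.10 against 5.50), with control cells up over time and 1 of the control 24 h arrays under the filter level, and near-identical histone copies can share probes. H1-2, a linker histone, was late only higher by a difference of 2.80 with its 72 h controls at the floor (3.49 to 3.52). H2AX, the damage-marked variant, turned by its first probe set (1.44) and not by its second (0.34). DDX5 read 10.30, 10.47 and 10.32 in Ota cells and 8.82, 8.52 and 8.60 in control cells at 72 h, and 10.72, 10.54 and 10.29 in Ota cells and 7.56, 7.32 and 7.15 in control cells at 24 h, a response of 1.72 at 72 h and 3.17 at 24 h.

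Metallothioneins, the metal-binding proteins, were mostly kept: 7 of 8 genes of the list were kept, 6 lower and 1, the zinc exporter SLC30A1, higher. Of all 10699 genes tested 777 were kept lower and 415 kept higher. The responses at 72 h and 24 h were -0.35 and -0.58 for MT2A, and -0.56 and -0.67 for MT1X. MT1M alone turned, at 0.41 at 72 h and -0.32 at 24 h. Of 21 p53 targets 2 had a called difference, beside 21.3% of all genes. TP53I3 was kept lower with a smaller response at 72 h (-1.26 against -2.48). CDKN1A, the p21 cell cycle inhibitor, read 9.66, 9.75 and 10.04 in Ota cells and 9.10, 9.05 and 8.98 in control cells at 72 h, and 8.96, 8.77 and 8.85 in Ota cells and 8.81, 8.42 and 8.59 in control cells at 24 h. It was called at 72 h alone, and its difference of 0.52 missed the threshold (limma adjusted p = 0.0523, with 0.0144 to 0.113 under other settings, 0.0492 without Ota 72 h replicate 1 and 0.0271 without control 24 h replicate 2).

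The 41 genes that turned to lower had a median response of -0.43 at 72 h and 0.39 at 24 h. Of 30 with another probe set, the next one had the same sign of the difference and passed for 16.7%. RFPL1S, MIA2 and AFF3 led the 41 genes by the smaller of both responses. MIA2, which helps load large cargo at ER exit sites, read 8.51, 8.89 and 8.83 in Ota cells and 9.67, 9.37 and 9.48 in control cells at 72 h, and 8.07, 8.37 and 8.26 in Ota cells and 7.53, 7.39 and 7.86 in control cells at 24 h. By this probe set MIA2 rose over time by 0.51 in Ota cells and by 1.91 in control cells. A second MIA2 probe set gave a difference of -1.51 from responses of 0.09 at 72 h and 1.601 at 24 h, so the turn rests on the brighter probe set. ACTA2, smooth muscle actin, turned with a change mainly in Ota cells. It read 6.08, 5.64 and 5.65 in Ota cells and 6.28, 6.43 and 6.37 in control cells at 72 h, and 7.29, 6.68 and 6.46 in Ota cells and 6.13, 5.92 and 6.11 in control cells at 24 h, a change over time of -1.02 in Ota cells and of 0.30, which did not pass, in control cells. In the list of matrix and TGF-beta genes 4 of 21 were higher in the difference and 2 lower, beside 15.5% and 5.79% of all genes. LOX, which crosslinks collagen, was late only lower, and its difference of -1.68 did not pass without control 72 h replicate 3 (-1.54, limma adjusted p = 0.0512). By the same ranking WDR76, LRRN4 and SPC25 led the 190 genes turned to higher, of which WDR76, a chromatin-binding protein, was at 1.63 at 72 h and -1.43 at 24 h, and at 0.83 and -0.95 by a second probe set.

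Of 18 injury and repair genes 2 (HAVCR1 and CCN1) had a called difference, both higher, beside 21.3% of all genes. HAVCR1 (KIM-1), the membrane protein that injured proximal tubule cells display, was late only higher. It read 11.48, 11.52 and 11.59 in Ota cells and 10.17, 9.67 and 9.69 in control cells at 72 h, and 11.02, 10.29 and 11.04 in Ota cells and 10.67, 10.63 and 10.72 in control cells at 24 h. Ota cells were 3.21 times control at 72 h and overlapped control at 24 h (difference 1.58 ± 0.27, SE, limma adjusted p = 0.0027). LCN2 (NGAL) had a difference of -1.001 ± 0.65 and HMOX1, the heme oxygenase, one of -0.02 ± 0.18 (SE), neither past the threshold (limma adjusted p = 0.299 and 0.945). The difference of CCN1, 1.12, did not pass without any 1 of 6 arrays.

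KRT20 had the largest positive difference of the 10699 genes. KRT20, a keratin of differentiated surface epithelium, read 10.62, 10.22 and 11.74 in Ota cells and 8.03, 7.63 and 9.19 in control cells at 72 h, and 7.25, 7.43 and 8.09 in Ota cells and 8.16, 8.11 and 8.94 in control cells at 24 h. It rose in Ota cells over time by 3.27 and was level in control cells (-0.12), a difference of 3.39 ± 0.64 (SE, limma adjusted p = 0.0044). CLDN2, the claudin of leaky tubule junctions, was late only higher (1.80). In the keratin and junction list 3 of 21 genes were higher and 1 lower, beside 15.5% and 5.79% of all genes. MMP7, a matrix protease of the injured kidney, was kept higher and larger at 72 h, at 1.74 against 0.41 at 24 h, while its level fell over time in both cultures. PROM1 (CD133), which marks regenerating tubule cells, was late only higher at 2.86 at 72 h and 0.74 at 24 h.

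Immediate-early genes and the feedback of MAPK signalling had a higher response at 72 h in 10 of 20 cases and a lower one in none (median difference 0.66). Over time 12 of 20 rose in Ota cells and 3 of 20 in control cells. KLF6, a zinc finger factor induced by injury, read 11.05, 11.22 and 11.35 in Ota cells and 10.61, 10.58 and 10.47 in control cells at 72 h, and 10.49, 10.07 and 10.43 in Ota cells and 10.80, 10.74 and 10.84 in control cells at 24 h. It turned without overlap at either time, but its second probe set had responses of 1.03 at 72 h and -0.13 at 24 h, so the turn rests on the brighter one. DUSP1, a MAPK phosphatase, turned as well (0.99) but not by its second probe set (0.45). Of 15 NF-kB and cytokine genes 3 were higher in the difference and 1, CXCL3, lower, beside 15.5% and 5.79% of all genes. NFKBIA, the inhibitor that NF-kB induces, was late only higher, at 0.94 at 72 h and -0.15 at 24 h.

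The counts of the remaining lists are read beside the 21.3% of all genes with a called difference. Among heat shock genes and chaperonins 3 of 16 were higher and 1 lower (median 0.31), and the small heat shock gene CRYAB turned to higher by 1.37 ± 0.12 (SE). NRF2 targets and glutathione genes, the oxidant defence, had 1 higher and 1 lower of 19 (median 0.06), the lower one being the transporter ABCC3 (-0.90), which did not pass with the second probe set (-0.66) or the mean of probe sets (-0.51). Interferon-stimulated genes had 3 higher of 20 (median 0.09), among them PSMB9, an immunoproteasome subunit, at 1.01. SR proteins, hnRNPs and CLK kinases, which act in splicing, had 5 higher and 3 lower of 25 (median 0.15). Circadian clock genes had 1 higher and 2 lower of 13 (median 0.03). Proximal tubule transport genes had 1 lower of 8, the organic cation transporter SLC22A4, at -1.54. The lists of 33 themes overlap in a few genes and were read against a median of 0.09 over all genes.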

How the data were processed

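RNA of 12 HK-2 cultures was read on Affymetrix arrays. The authors deposited log2 values made with GCRMA, per the submitters' processing notes, whose version is not given in the sources used here. GCRMA subtracts background and quantile-normalizes, so low values pile up at a floor and a shift of all genes cannot be seen. Depth has no counterpart on arrays, and the 3 arrays a group limit the precision. Of 54675 probe sets, 62 controls were left out, 41091 had 1 gene symbol, 1801 several and 11721 none. Symbols were updated through RefSeq (41037 matched). Genes were read from their brightest probe set, if above log2 4 on at least 3 arrays, which left 10699. limma 3.58.1 in R 4.3.3 fitted 4 group means over 12 arrays with eBayes, and p-values were Benjamini-Hochberg adjusted over all genes. The fit was tested on simulated data. Promoters are from RefSeq. Python 3.11.15, pandas 2.3.3 and matplotlib 3.10.9 made the tables and plots.

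Genes were named where they had the largest differences or class responses with all group means at log2 4 or above and arrays that did not overlap, as up to 2 members of each list by smallest p, or as HAVCR1, LCN2, CDKN1A and HMOX1. Other list members named were chosen after their values were seen. The members and lists were chosen with earlier results of these data known.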

Additional observations from a re-analysis of the deposited data

Results flagged for a closer look

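The Ota response differed between times by the test of the difference itself for 1659 genes with a higher and 619 with a lower response at 72 h, and for the named genes below, each with its difference in log2 units (limma, 3 arrays a group). Late only higher genes with a called difference were KRT20 (3.39), MCM10 (2.79), PROM1 (2.12), XKR4 (2.40), ASF1B (2.55), CDCA8 (1.29), H1-2 (2.80), BRIP1 (2.17), FDPS (1.25), PGAM1 (0.69), PSMD1 (0.61), PSMA7 (0.47), NFKBIA (1.10), TNFAIP2 (0.66), CLDN2 (1.80), HAVCR1 (1.58), HNRNPA2B1 (1.03) and PER3 (0.85).

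Late only lower genes with a called difference were ALDH1L2 (-3.15), BCAT1 (-2.43), TMEM45A (-2.40), ERO1B (-2.29), LOX (-1.68), XPOT (-0.85), WARS1 (-1.81), IARS1 (-0.75), PDIA6 (-0.99), LMAN1 (-1.04), LAMP3 (-3.12) and PER2 (-1.004). Early only higher genes with a called difference were DNAI4 (-1.70), GALK2 (-1.59), LOC283788 (-1.40), ATF6 (-1.16), DNAJB4 (-0.52), ABCC3 (-0.90) and SLC22A4 (-1.54). Early only lower genes with a called difference were POLA2 (3.14), UCA1 (2.86), TLCD1 (2.49), PUSL1 (2.33), NDUFS1 (0.59), MRPL15 (0.53), MRPS7 (0.69), WDR12 (0.52), GLA (1.00), PSMB9 (1.01), CDH6 (1.13) and CCN1 (1.12).

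Genes turned to higher were WDR76 (3.06), SPC25 (2.78), LRRN4 (2.34), GINS2 (2.21), TIMELESS (1.39), WDHD1 (1.56), TK1 (2.26), CTPS1 (1.61), UHRF1 (2.35), AURKB (1.89), H2AX (1.44), RAD54L (2.43), DDB2 (1.01), CRYAB (1.37), MT1M (0.73), EBP (1.09), ENO2 (1.46), SDHA (0.81), DUSP1 (0.99), KLF6 (1.12) and UNG (0.92). Genes turned to lower were RFPL1S (-1.49), MIA2 (-1.40), AFF3 (-1.48), TMED10 (-1.03) and ACTA2 (-1.32). Kept genes whose responses differed in size were LINC01963 (-2.69), H2AC6 (-2.40), IER5L (0.51), TP53I3 (1.22), IFI35 (2.88), MMP7 (1.33) and DDX5 (-1.46). Called in the difference alone were PIR (0.74) and FBL (0.33).

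Some of these calls changed with the processing. The second brightest probe set gave differences of 0.13 for GALK2, 0.05 for HNRNPA2B1, 0.32 for NDUFS1, 0.22 for CDH6, -0.58 for WDR12, 0.23 for IER5L and -0.66 for ABCC3, and the mean of probe sets gave 0.68 for XKR4 and 0.30 for PER3, none of them past the threshold. IFI35 at Ota 24 h, and LAMP3 at 24 h in both cultures, lay near the floor of the arrays. In Ota cells at 72 h LAMP3 read 2.33, 4.45 and 2.32, with only replicate 2 off that floor. PIR, CCN1, PER2, TLCD1, PROM1 and LOX missed the threshold with no expression filter, and PIR and FBL with quantile normalization repeated. Single arrays decided CCN1 (each of Ota 24 h replicate 2, Ota 72 h replicates 1 and 3, control 24 h replicates 1 and 3 and control 72 h replicate 2), PER2 (Ota 24 h replicates 1 and 2, Ota 72 h replicates 1 and 3, control 24 h replicate 1 and control 72 h replicate 3) and WDR12 (Ota 24 h replicates 1 and 2, Ota 72 h replicates 1 and 2 and control 72 h replicates 1 and 3). PIR missed the threshold without any 1 of 8 arrays (replicates 1 and 2 of Ota 24 h, and replicates 1 and 3 of the other groups), and FBL without any 1 of 9 (all but Ota 72 h replicate 3 and control 24 h replicates 2 and 3).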

How the results depend on the processing

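Against 1659 higher and 619 lower differences as reported, 1398 higher and 841 lower ones were called after a second quantile normalization, and 1924 and 500 with the arrays shifted to a common median, which moved the median difference of all genes to 0.14, against 0.09 as reported. Array weights gave 3582 called differences, 1126 of them lower, and 473 turned genes. The second brightest probe set, present for fewer genes, gave 793 (523 higher, 270 lower), with 288 early only, 317 late only, 629 kept and 60 turned. At an adjusted p below 0.01 there were 921 (702 higher, 219 lower), with 332 early only, 399 late only, 603 kept and 71 turned. With at least 1.5-fold responses 577 genes were kept and 63 turned. Leaving out 1 array gave 1555 to 2401 called differences, the fewest without Ota 72 h replicate 1. It gave 153 to 229 turned genes, the fewest without Ota 24 h replicate 2. The sign turned for GALK2 (0.13) and PLPP5 (-1.47) with the second brightest probe set, for PLPP5 (-1.003) and WDR12 (-0.20) with the mean of probe sets and for WDR12 (-0.58) with the second, for PLPP5 (-0.12) and TSPAN31 (-0.00788) with quantile normalization repeated and for HMOX1 (0.031) with the common median. Leaving out 1 array gave MGC16275 -0.78 to 0.16, PLPP5 -0.27 to 0.19, TSPAN31 -0.064 to 0.41 and HMOX1 -0.14 to 0.088. The cause of these shifts was not tested. Of 33 list medians, those of NRF2 and of the clock turned sign with quantile normalization repeated, and 12 of 99 list counts moved by over 1.5 times. Groups shared replicate numbers, and no label says what a number marks. Deviations of same-numbered arrays correlated at 0.323 to 0.455 at 24 h, against at most -0.079 for other numbers, and at 0.067 to 0.268 at 72 h, against up to 0.155, so a pairing is hinted at by the 24 h data and is not settled for both times. With the replicate number as a block the number of genes with a called difference was 2831 (2010 higher, 821 lower), against 2278, and of the named genes CDKN1A changed its call (adjusted p = 0.0473, limma). Signal near the floor limits the size of differences in dim genes.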
